A study of Mus musculus with 8 samples.

Results

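Genes of fatty acid and triglyceride synthesis were followed through the aortas of ApoE-/- and NPRC-/-ApoE-/- mice, namely Acly, Me1, Acaca, Fasn, Thrsp, Elovl6, Scd1, Agpat2, Dgat1 and Dgat2. They were chosen by name, and for each name the locus with the most counts over all libraries was used. This gave 10 loci of the 48607 in the table, all of which passed the filter on low values (at least 3 libraries with an FPKM, the level scaled to exon length and library size, of 1 or more) that left 20506 loci for testing.

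De novo lipogenesis turns citrate into fatty acids in the cytosol. Acly splits citrate into acetyl-CoA, Me1 supplies the NADPH, Acaca makes malonyl-CoA, and Fasn builds palmitate from it. Elovl6 lengthens and Scd1 desaturates the product, and Agpat2, Dgat1 and Dgat2 join acyl chains to the glycerol backbone until triglyceride is formed. The pathway is known to be most active in fat and liver, and fat lies around the aorta.

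Poly(A) RNA of whole aortas was sequenced from mice that all lacked ApoE and had been fed a Western diet for 12 weeks. NPRC-/-ApoE-/- mice also carried a frameshift in exon 1 of Npr3, the gene for NPRC, made by CRISPR in every tissue, and the ApoE-/- mice were their littermates. The study's methods give an age of 8 weeks for purchased ApoE-/- mice but none for these littermates, and it is not stated whether a library was 1 aorta. The study's methods give 5 mice in each group, whereas by title 5 libraries were ApoE-/- (1 to 5) and 3 were NPRC-/-ApoE-/- (1 to 3). The genotype entry of the sample records went against the title for 4 libraries, since ApoE-/- 4 and 5 were entered as Nprc-/-Apoe-/- and NPRC-/-ApoE-/- 1 and 2 as Apoe-/-. The comparisons were therefore made by title and again by genotype entry. Npr3 could not settle the labels, as a frameshift need not lower its transcript, and its FPKM was 0.62 to 1.69 in the libraries titled ApoE-/- and 1.13 to 1.39 in those titled NPRC-/-ApoE-/-.

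Total counts were 62969165 to 86693276 per library. Markers of the aortic wall were present in every library, with Myh11 of smooth muscle at 109 to 324 FPKM and Pecam1 of endothelium at 18.5 to 24.7 FPKM. Markers of fat were present too, with Adipoq of adipocytes at 18.2 to 114 FPKM and Ucp1 of brown adipocytes at 71.8 to 343 FPKM. Libraries titled ApoE-/- 3 and ApoE-/- 5 stood apart, the former with the lowest summed fat markers and the latter with hepatocyte transcripts (Alb 43.7 FPKM against 0.05 to 0.34 elsewhere). Fewer cells of a type and less RNA per cell cannot be told apart in such bulk samples.

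Promoters of 7 of the 10 genes were found among RefSeq promoter sequences (GRCm38.p6), with 8 promoters in all because Me1 has 2. Those of Fasn, Thrsp, Acly and Agpat2 are shown because Fasn and Thrsp followed similar patterns across the libraries, Acly departed from the others, and Agpat2 had the largest difference by title. Each runs from 250 bases before to 50 bases after the transcription start and lies on the minus strand, at chr11:120824498-120824797 for Fasn, chr7:97417501-97417800 for Thrsp, chr11:100527951-100528250 for Acly and chr2:26604368-26604667 for Agpat2. Capitals mark CCAAT and GGGCGG on either strand.
Fasn: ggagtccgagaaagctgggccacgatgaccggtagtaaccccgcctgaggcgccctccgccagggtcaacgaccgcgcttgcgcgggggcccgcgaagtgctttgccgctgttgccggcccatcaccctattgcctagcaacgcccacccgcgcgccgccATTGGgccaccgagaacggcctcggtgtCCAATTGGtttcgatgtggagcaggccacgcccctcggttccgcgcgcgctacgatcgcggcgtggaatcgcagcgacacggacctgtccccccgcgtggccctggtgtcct
Thrsp: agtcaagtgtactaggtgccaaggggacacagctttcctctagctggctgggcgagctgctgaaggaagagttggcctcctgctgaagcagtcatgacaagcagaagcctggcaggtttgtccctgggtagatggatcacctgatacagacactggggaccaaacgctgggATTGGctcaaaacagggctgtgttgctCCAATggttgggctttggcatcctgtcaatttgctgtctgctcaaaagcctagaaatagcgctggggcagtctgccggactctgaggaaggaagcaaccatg
Acly: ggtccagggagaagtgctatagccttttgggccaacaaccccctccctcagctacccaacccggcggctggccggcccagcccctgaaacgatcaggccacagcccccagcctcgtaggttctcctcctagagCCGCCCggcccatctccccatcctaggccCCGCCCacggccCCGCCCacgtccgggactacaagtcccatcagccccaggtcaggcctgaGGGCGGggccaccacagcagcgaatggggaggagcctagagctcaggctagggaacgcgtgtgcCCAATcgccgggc
Agpat2: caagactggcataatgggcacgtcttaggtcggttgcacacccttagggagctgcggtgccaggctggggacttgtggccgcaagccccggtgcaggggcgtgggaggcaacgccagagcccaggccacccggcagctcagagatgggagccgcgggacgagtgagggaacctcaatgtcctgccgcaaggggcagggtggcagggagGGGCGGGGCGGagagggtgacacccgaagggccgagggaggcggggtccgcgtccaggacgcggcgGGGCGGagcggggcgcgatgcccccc

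The CCAAT box, a common element of lipogenic promoters, occurred 3 times in the Fasn promoter, of which a pair overlapped on opposite strands. It occurred 2 times in that of Thrsp, and 4 of the 8 promoters held it, against 37.4% of 32851 mouse promoters of this length. GGGCGG, the GC box, was found in 3 of the 8 promoters, 4 times in Acly and 3 times in Agpat2, against 35.7% of all. Further motifs were searched on both strands and were in none of these 8 windows. Of all promoters, 7.2% held the E-box letters CACGTG. The letters of the core promoter element TATAAA were in 13.6%. The first letters of a sterol regulatory element, TCACNCC, were in 15.6%.

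Scd1 was by far the most abundant member. It was among the 24 highest loci by FPKM in each library (rank 6 to 24) and took between 0.284% and 1.43% of all counts, while the 10 genes together took 0.545% to 2.02%. Fasn followed at rank 26 to 92. The FPKM of the table divides by the length of every exon assembled at a locus, and this length was 11.7 times the longest protein-coding GENCODE M21 transcript for Agpat2 (17.4 against 1.49 kb) and 4.95 times for Dgat1 (9.34 against 1.89 kb), but only 1.01 times for Scd1. Per kilobase of that transcript, with the library scaling of the FPKM, the medians over 8 libraries were 1492 for Scd1, 269 for Fasn, 106 for Dgat2, 81.1 for Thrsp, 77.5 for Acly, 72.1 for Agpat2, 61.9 for Acaca, 32.8 for Me1, 23.4 for Dgat1 and 13.7 for Elovl6. Agpat2 was thus sixth on this scale and ninth by FPKM. The scale divides the counts of the whole locus, including any reads outside that transcript, by its length. It can therefore overstate genes with a much longer assembled length, as Agpat2 and Dgat1, and their ranks on it are upper limits.

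**Figure D1:**
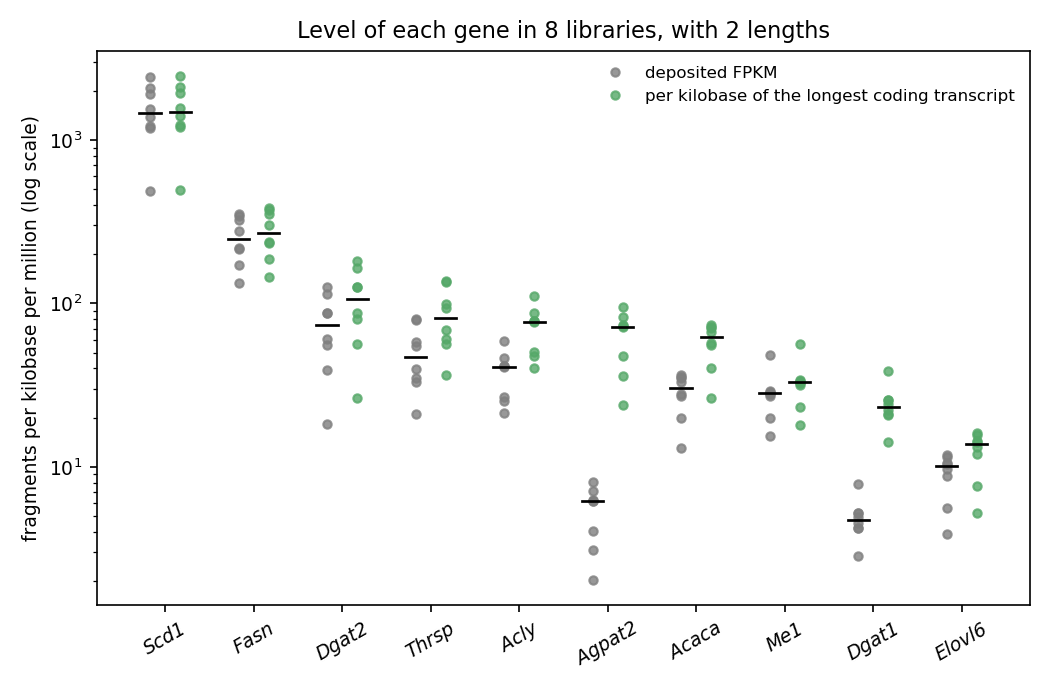
Level of the 10 genes in each of the 8 libraries (points) with the median (line), on a log axis, as deposited FPKM and per kilobase of the longest coding transcript. Scd1 lies highest on both scales, and Agpat2 moves from a median of 6.16 to 72.1. The second scale uses the counts of the whole locus, so it can overstate Agpat2 and Dgat1.

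Scd1 exceeded Fasn, and Fasn exceeded Dgat2, in 8 of 8 libraries. The next ranks were not separated, since Dgat2 exceeded Thrsp in 4 of 8, Thrsp exceeded Acly in 5 of 8, Acly exceeded Agpat2 in 5 of 8 and Agpat2 exceeded Acaca in 5 of 8. Acaca lay above Me1 in 8 of 8, Me1 above Dgat1 in 7 of 8, and Dgat1 above Elovl6 in 8 of 8.

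Grouped by title, 0 of the 10 genes differed between NPRC-/-ApoE-/- and ApoE-/- aortas in edgeR's quasi-likelihood test at an unadjusted p under 0.05, where 13.6% of all tested loci did. No member passed the fold (above 2 or below 0.5) and p criterion of the study's methods either, against 3.47% of all loci. In 9 of the 10 genes the value was higher in the NPRC-/-ApoE-/- group, as against 49.1% of all loci, with a median log2 fold change of 0.36 over the members and -0.01 over all loci. This count of directions depended on ApoE-/- 3. Without that library the median over the members was 0.24. Me1 (-0.28), Scd1 (-0.14), Dgat1 (-0.09) and Dgat2 (-0.08) then had lower values in the NPRC-/-ApoE-/- group. The groups overlapped for every member, while they did not overlap for 7.41% of all loci. After adjustment over all loci edgeR called 0 loci, limma on log2(FPKM + 1) called 2 and DESeq2 called 627, none of them a member.

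**Figure D2:**
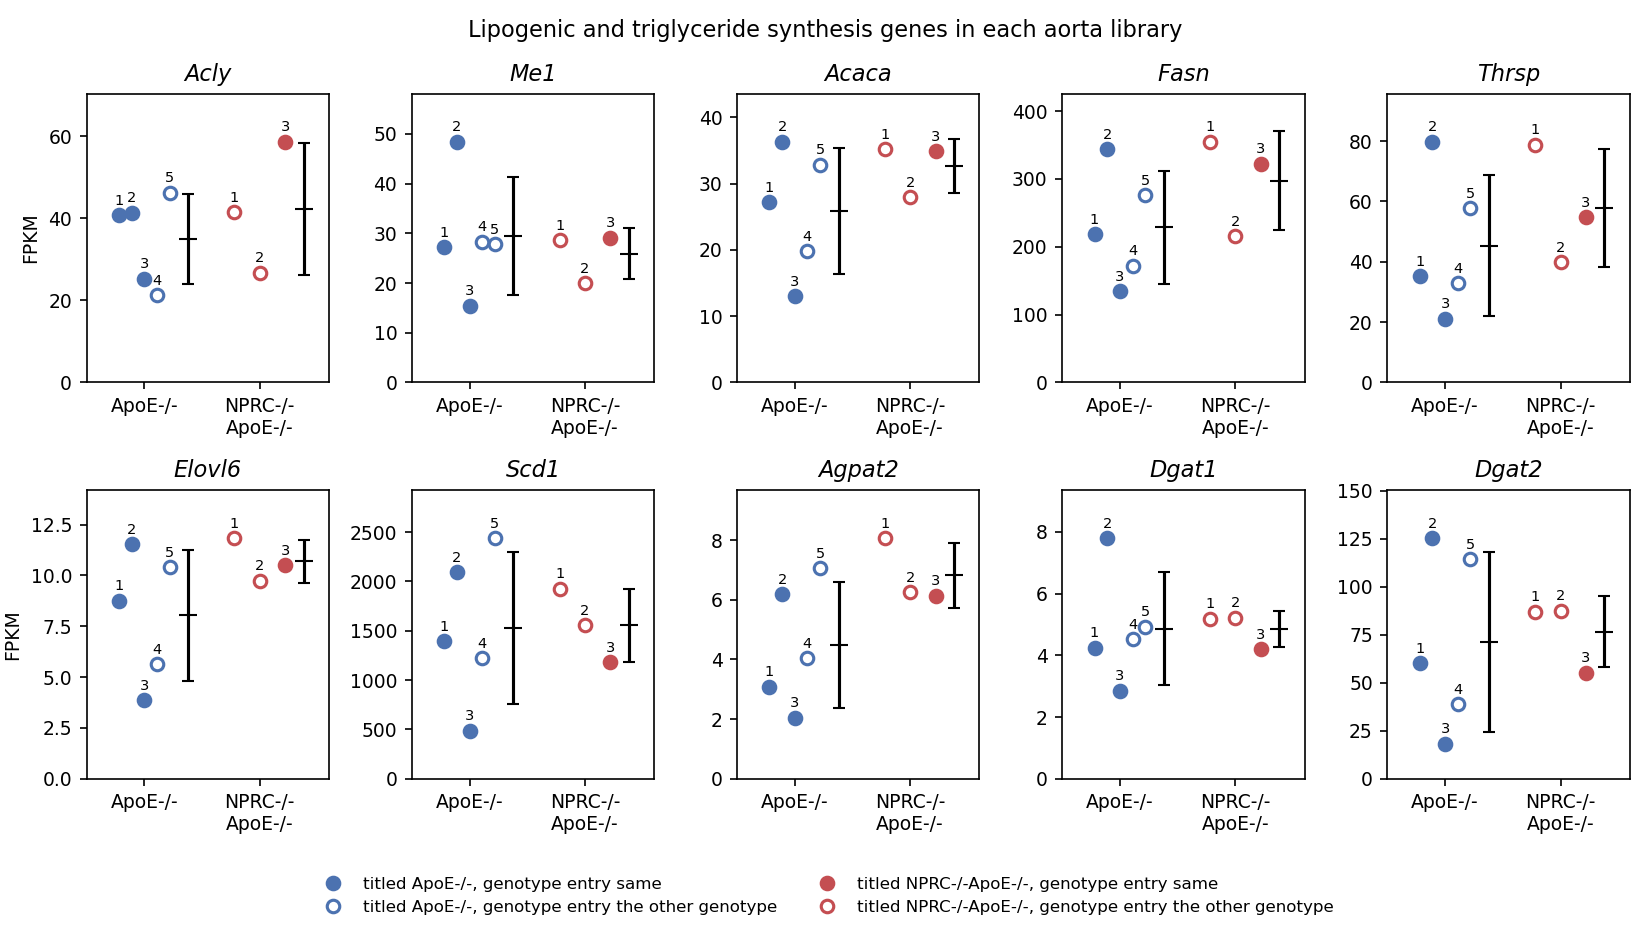
FPKM of the 10 genes in every library, by title, with the mean and SD at the right of each group (n = 5 and n = 3). Open circles are libraries whose genotype entry names the other genotype, and the groups overlap in all 10 panels.

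The carbon suppliers showed no difference beyond their spread. Acly, which yields acetyl-CoA, measured 40.8, 41.4, 25.2, 21.2 and 46.2 FPKM in ApoE-/- 1 to 5 and 41.4, 26.7 and 58.6 FPKM in NPRC-/-ApoE-/- 1 to 3. The highest library was NPRC-/-ApoE-/- 3, but NPRC-/-ApoE-/- 2 lay among the low ApoE-/- libraries. Its log2 fold change of 0.33 (SE 0.31, adjusted p = 0.65 by edgeR) rested on the former, being -0.02 without it, and was 0.60 without the latter. Me1, malic enzyme, measured 27.2, 48.4, 15.4, 28.4 and 27.9 FPKM in the ApoE-/- and 28.6, 19.97 and 29.1 FPKM in the NPRC-/-ApoE-/- libraries. ApoE-/- 2 stood high and ApoE-/- 3 low, and the 3 NPRC-/-ApoE-/- libraries lay inside that range. Me1 was the only member with a lower mean log2 value in this group (log2 fold change -0.15, SE 0.30, adjusted p = 0.85 by edgeR).

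Among the genes of palmitate synthesis, Acaca, the acetyl-CoA carboxylase, measured 27.2, 36.4, 13.0, 19.8 and 32.9 FPKM in ApoE-/- 1 to 5 and 35.2, 28.0 and 34.9 FPKM in NPRC-/-ApoE-/- 1 to 3. Its low values were those of ApoE-/- 3 and 4. Fasn, fatty acid synthase, measured 218, 344, 134, 172 and 276 FPKM against 355, 216 and 322 FPKM. This was 229 ± 83.3 (SD, n = 5) in the ApoE-/- and 298 ± 72.8 (SD, n = 3) in the NPRC-/-ApoE-/- group. Thrsp, a nuclear protein tied to lipogenesis, measured 35.2, 79.8, 21.2, 32.9 and 57.8 FPKM against 78.8, 39.9 and 54.7 FPKM. For these 3 genes, ApoE-/- 2 and NPRC-/-ApoE-/- 1 were among the high libraries and ApoE-/- 3 the lowest. The log2 fold changes were 0.38 (SE 0.28) for Acaca, 0.42 (SE 0.31) for Fasn and 0.39 (SE 0.38) for Thrsp, and the adjusted p by edgeR was 0.56, 0.56 and 0.67.

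Of the genes that modify the chain, Elovl6, the elongase of palmitate, measured 8.76, 11.5, 3.85, 5.63 and 10.4 FPKM in ApoE-/- 1 to 5 and 11.8, 9.74 and 10.5 FPKM in NPRC-/-ApoE-/- 1 to 3. The 3 NPRC-/-ApoE-/- libraries lay close together, near the upper end of the wide ApoE-/- range. The log2 fold change was 0.46 (SE 0.29, adjusted p = 0.50 by edgeR). The Elovl6 locus also includes Gm43072. Scd1, stearoyl-CoA desaturase, measured 1394, 2096, 487, 1221 and 2440.5 FPKM against 1928, 1555 and 1181 FPKM. The lowest and the highest library were both ApoE-/-, and the means were 1528 ± 767 (SD, n = 5) and 1555 ± 374 (SD, n = 3), so that the log2 fold change was 0.07 (SE 0.44, adjusted p = 0.96 by edgeR).

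In triglyceride assembly, Agpat2, which adds an acyl chain to lysophosphatidic acid, had the largest difference of the 10 genes. It measured 3.08, 6.18, 2.04, 4.04 and 7.06 FPKM in ApoE-/- 1 to 5 and 8.07, 6.26 and 6.13 FPKM in NPRC-/-ApoE-/- 1 to 3. ApoE-/- 1, 3 and 4 lay below all 3 NPRC-/-ApoE-/- libraries, ApoE-/- 2 and 5 among them. The log2 fold change of 0.64 (SE 0.34) had an unadjusted p of 0.087 and an adjusted p of 0.43 by edgeR. Without ApoE-/- 5 it was 0.84 with an unadjusted p of 0.028, and without ApoE-/- 3 and ApoE-/- 5 it was 0.65 with 0.043. In these settings 3844 and 2806 of the 20506 loci, respectively, had an unadjusted p under 0.05 by edgeR. Without ApoE-/- 3 alone the log2 fold change of Agpat2 was 0.48 with an unadjusted p of 0.12 by edgeR. Without ApoE-/- 1 it was 0.53 with 0.16, and without NPRC-/-ApoE-/- 1 it was 0.53 with 0.22. The Agpat2 locus in the table runs 15483 bases beyond the annotated gene on its upstream side, where Gm20532 lies on the opposite strand. The study's library preparation labelled the second cDNA strand and treated it with the enzyme UDG before amplification. Whether the counting used strand is not stated in the sources used here. It is thus not known if reads of both genes were kept apart.

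Dgat1 and Dgat2 catalyse the last step, the addition of the final acyl chain. Dgat2 varied most, at 60.2, 125, 18.2, 39.0 and 114 FPKM in ApoE-/- 1 to 5 and 87.2, 87.5 and 55.3 FPKM in NPRC-/-ApoE-/- 1 to 3, a 6.90-fold span. The NPRC-/-ApoE-/- libraries lay in the middle of the ApoE-/- range. Dgat1 measured 4.24, 7.80, 2.85, 4.52 and 4.92 FPKM against 5.18, 5.22 and 4.19 FPKM, a 2.74-fold span, and again the ApoE-/- libraries enclosed the others. The log2 fold changes were 0.15 (SE 0.51, adjusted p = 0.92 by edgeR) for Dgat2 and 0.03 (SE 0.26, adjusted p = 0.97 by edgeR) for Dgat1.

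Precision differed among the genes. The 95% interval of the log2 fold change by title stayed within a 2-fold difference in either direction for Me1 (-0.83 to 0.54) and Dgat1 (-0.55 to 0.61), but reached beyond it for the other 8 genes, up to 1.41 for Agpat2 and 1.31 for Dgat2. A 2-fold rise thus lay inside the interval of each of these 8 genes.

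By genotype entry, 0 of 10 members again had an unadjusted p under 0.05, and here 1.31% of all loci did. The log2 fold changes ran from -0.11 (Dgat1) to 0.30 (Acly), with a median of 0.07 against -0.00 over all loci, and 6 of 10 were higher. Agpat2 fell to 0.20 (95% interval -0.72 to 1.11), Fasn to 0.06 (-0.75 to 0.87) and Elovl6 to -0.01 (-0.77 to 0.75). The interval stayed within a 2-fold difference for 6 genes, namely Me1, Acaca, Fasn, Thrsp, Elovl6 and Dgat1. The groups overlapped for every member in this grouping too, against 1.2% of all loci without overlap. For Acly the value was 0.63 without ApoE-/- 4, with an unadjusted p of 0.037 by edgeR, and -0.07 without NPRC-/-ApoE-/- 3, with an unadjusted p of 0.83. Without ApoE-/- 4, 730 of the 20506 loci had an unadjusted p under 0.05 by edgeR in this grouping.

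**Figure D3:**
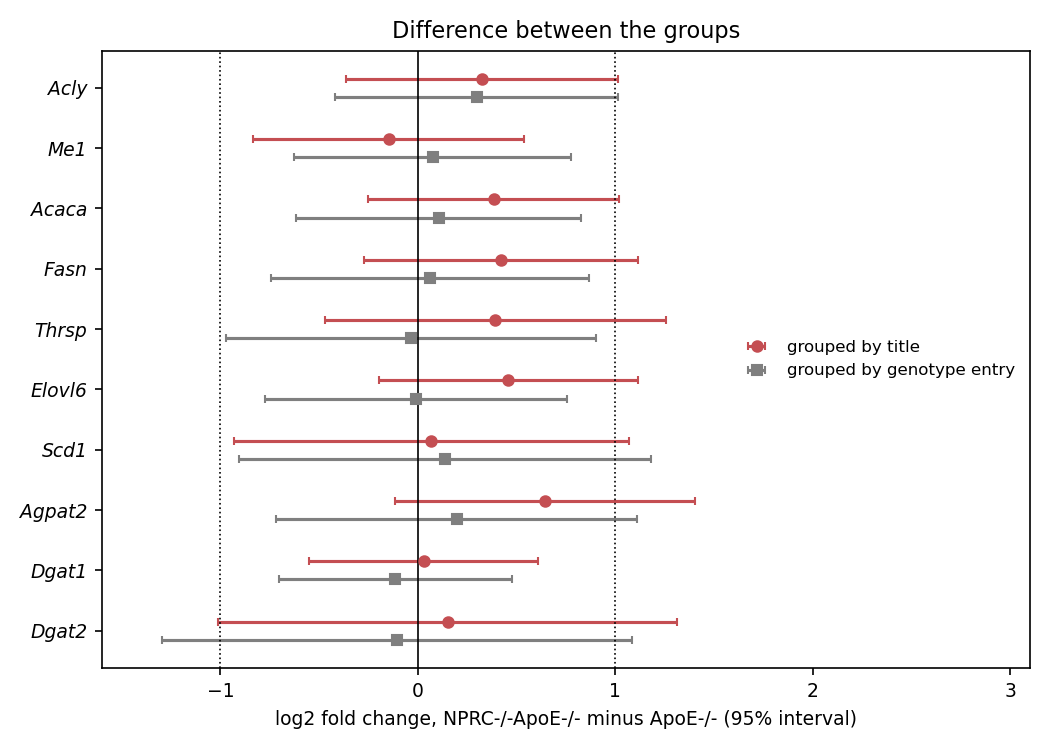
Log2 fold change of NPRC-/-ApoE-/- against ApoE-/- with its 95% interval, by title (circles) and by genotype entry (squares). Dotted lines mark a 2-fold difference. Every interval includes 0, and those by genotype entry are centred nearer to 0 except for Scd1 and Dgat1.

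The libraries differed more from each other than the groups did. The SD of log2 CPM (counts scaled to library size) over the 8 libraries exceeded the log2 fold change by title for each member, though barely for Agpat2 (0.653 against 0.645). The share of all loci that meet this was not computed, and the SD includes the difference between the groups. This SD was 0.37 for Dgat1 to 0.86 for Dgat2, with a median of 0.50 against 0.34 over all tested loci. Dgat2 exceeded 92.7% of loci in this respect. ApoE-/- 3 was the lowest library for 9 of 10 genes, the exception being Acly (lowest in ApoE-/- 4). ApoE-/- 2 was the highest for 5 genes, NPRC-/-ApoE-/- 1 for 3, and ApoE-/- 5 and NPRC-/-ApoE-/- 3 for 1 each. Relative to the median library, ApoE-/- 3 was lower by 0.55 (Acly) to 1.86 (Dgat2) on the log2 scale.

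**Figure D4:**
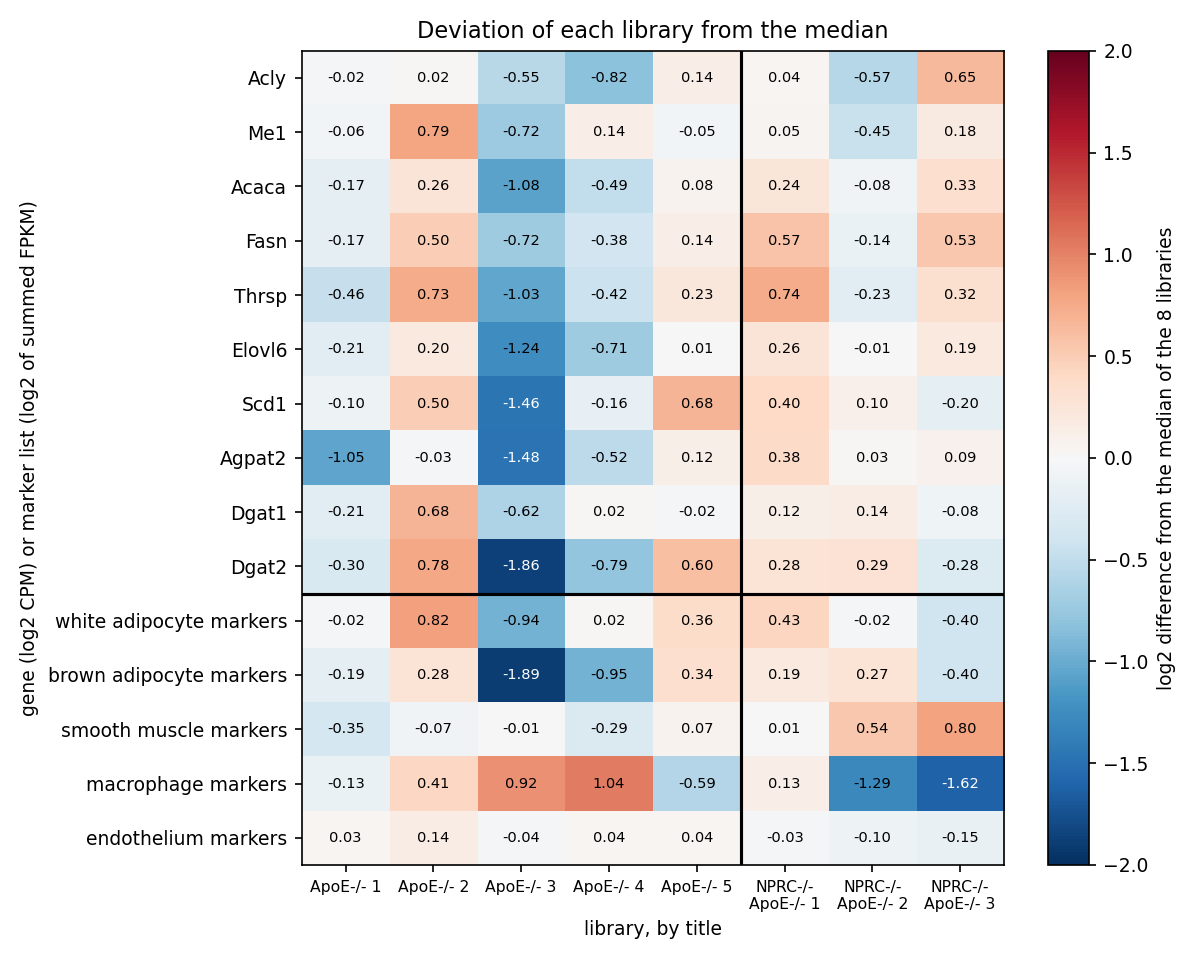
Log2 difference of each library from the median of the 8 libraries, for the 10 genes (log2 CPM) and for 5 marker lists (log2 of summed FPKM). ApoE-/- 3 is low in all 10 genes and in both adipocyte lists, by 0.94 (white) and 1.89 (brown), but not in the smooth muscle list.

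Fat markers varied along with these genes. The summed FPKM of 14 white adipocyte markers (none of them at 0 in any library) was 200.7 in ApoE-/- 3 and 681 in ApoE-/- 2. By title it was 201 to 681 in the ApoE-/- and 293 to 519 in the NPRC-/-ApoE-/- libraries, without a difference between the groups (two-sided exact permutation p = 0.86, where 0.036 is the smallest possible). The 8 brown adipocyte markers, none at 0, summed to 133 to 626 FPKM and 376 to 595 FPKM, respectively (exact permutation p = 0.57). Ucp1 alone held 71.8 of the 133 FPKM in ApoE-/- 3 and 319 of the 626 FPKM in ApoE-/- 5. By title all 8 brown adipocyte markers had higher values in the NPRC-/-ApoE-/- group, with a median log2 fold change of 0.39 beside the 0.36 of the 10 genes, and 0 of them had an unadjusted p under 0.05 by edgeR. Of the 13 white adipocyte markers tested, 9 were higher, with a median of 0.03. By genotype entry 2 of 8 brown (median -0.10) and 2 of 13 white markers (median -0.09) were higher, and the exact permutation p were 0.79 for the white and 0.75 for the brown list.

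Across the 8 libraries, Pearson's r between log2 CPM and the log2 of the summed white adipocyte markers was positive for all 10 genes. It was highest for Scd1 (r = 0.92, exact permutation p = 0.0026, adjusted over the 10 genes 0.026; rho = 0.86, p = 0.011, adjusted 0.11). Dgat1 had r = 0.89 (exact permutation p = 0.0082, adjusted 0.027; rho = 0.81, p = 0.022, adjusted 0.11), and Dgat2 had r = 0.88 (p = 0.0072, adjusted 0.027; rho = 0.74, p = 0.046, adjusted 0.14). These 3 genes passed the adjustment by r and 0 by rho. Without the 2 libraries farthest from the median of the marker level (ApoE-/- 2 and 3), r was 0.85 for Scd1, 0.58 for Dgat2, 0.41 for Dgat1, 0.38 for Thrsp and 0.31 for Agpat2, and between -0.20 and 0.12 for the other 5 genes. Apart from Scd1, the relation thus rested largely on those libraries. Acly was least related (r = 0.21, exact permutation p = 0.63). Without ApoE-/- 5, 1 gene passed by r. With the group means by title removed, an analysis added after the data were seen, r ran from 0.23 (Acly) to 0.94 (Scd1), and 6 genes passed the adjustment in an exact permutation within the groups. With those by genotype entry removed it ran from 0.23 (Acly) to 0.94 (Scd1), and 1 gene passed, Scd1 (exact permutation p = 0.0028, adjusted 0.028). The labels name no batch. The part of the fat content in the spread of these genes was not tested beyond these values.

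**Figure D5:**
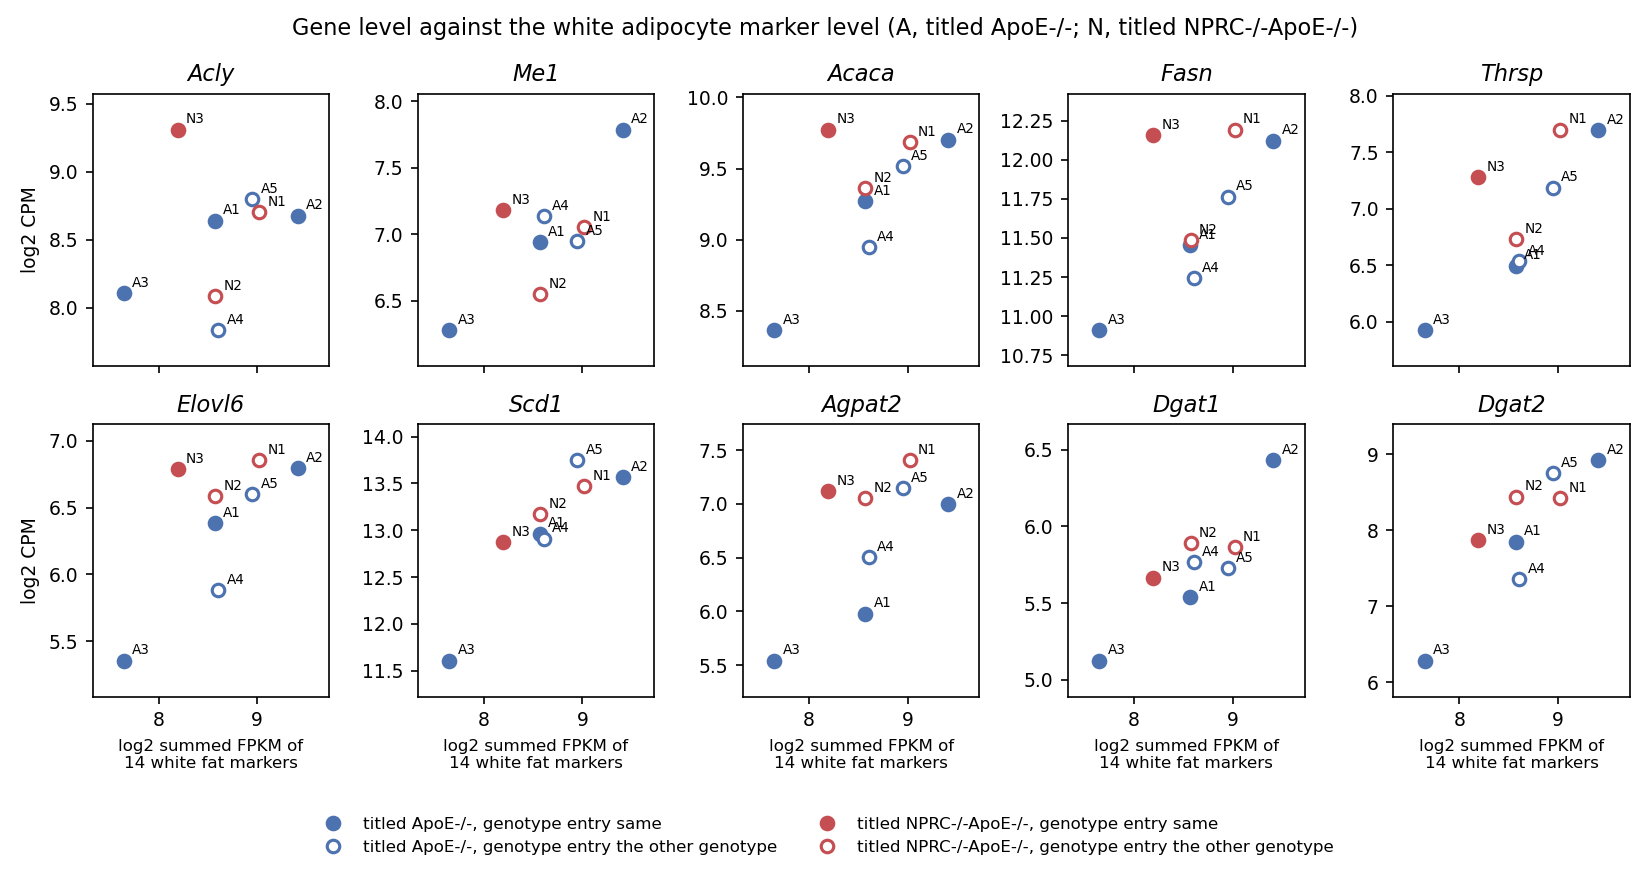
Log2 CPM of each gene against the log2 of the summed FPKM of 14 white adipocyte markers in the 8 libraries, each point labelled by title and number (A, ApoE-/-; N, NPRC-/-ApoE-/-), with open circles where the genotype entry names the other genotype. Scd1 follows the marker level across the whole range (r = 0.92), whereas Acly does not (r = 0.21). NPRC-/-ApoE-/- 3 lies below the median in marker level but above it for Acly, Acaca, Fasn, Thrsp, Elovl6, Me1 and Agpat2.

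With the brown adipocyte list in its place, a choice made after the data were seen, Dgat2 had r = 0.98 (exact permutation p = 0.00055, adjusted 0.0055; rho = 0.95, p = 0.0011, adjusted 0.0057) and Scd1 r = 0.94 (p = 0.0015, adjusted 0.0077; rho = 0.95, p = 0.0011, adjusted 0.0057). Both held without the 2 farthest libraries (ApoE-/- 3 and 4), at r = 0.91 and 0.87. Elovl6 passed by r (0.92, exact permutation p = 0.013, adjusted 0.042; rho = 0.62, p = 0.11, adjusted 0.25), but its r was 0.14 without them.

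Other genes of the pathway were read from a list of 49 names at 47 loci, of which 43 were tested. By title, 1 was higher and 2 were lower at an unadjusted p under 0.05, a smaller share than the 13.6% of all loci, and 0 passed the adjustment in edgeR. Lpin2, a phosphatidate phosphatase of the triglyceride route, measured 1.86, 1.88, 1.83, 2.03 and 1.32 FPKM in ApoE-/- 1 to 5 and 1.32, 1.04 and 1.04 FPKM in NPRC-/-ApoE-/- 1 to 3. Its values in NPRC-/-ApoE-/- 2 and 3 lay below all ApoE-/- libraries, and the log2 fold change was -0.64 (SE 0.19, unadjusted p = 0.0077, adjusted p = 0.27 by edgeR). Its relative Lpin3 measured 2.39, 2.21, 3.17, 2.79 and 1.98 FPKM against 3.30, 3.29 and 4.53 FPKM. Every NPRC-/-ApoE-/- value lay above the ApoE-/- values by FPKM, but the groups overlapped in log2 CPM. The log2 fold change of Lpin3 was 0.58 (SE 0.23, unadjusted p = 0.032, adjusted p = 0.33 by edgeR). Nr1h3, the liver X receptor alpha that activates lipogenic genes, shares its locus with Madd and Gm13783. That locus measured 3.34, 4.22, 3.55, 3.98 and 3.35 FPKM against 3.23, 2.53 and 2.14 FPKM, a log2 fold change of -0.47 (SE 0.16, unadjusted p = 0.017, adjusted p = 0.31 by edgeR). By genotype entry the log2 fold changes were -0.08 for Lpin2, 0.16 for Lpin3 and -0.07 for the Nr1h3 locus.

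By role, 6 of 13 tested genes of fatty acid synthesis and carbon supply, 2 of 6 desaturases and elongases, 8 of 12 of glycerolipid assembly and 5 of 12 regulators had higher values in the NPRC-/-ApoE-/- group by title. The median log2 fold change over the 43 genes was -0.01, close to that of all loci and below the 0.36 of the 10 genes. By genotype entry 0 of 43 had an unadjusted p under 0.05 by edgeR, with a median of -0.03. Elovl7, Gpat2, Mogat1 and Mogat2 were too low to be tested (at most 1.01 FPKM).

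Some markers of the cells of the aortic wall had an unadjusted p under 0.05 by title in edgeR, as 13.6% of all loci did. No marker passed the adjustment over all loci. All 8 smooth muscle markers were higher at an unadjusted p under 0.05 by edgeR (median log2 fold change 0.73, adjusted p 0.26 to 0.36). Their sums were 1691 to 2919 FPKM in the NPRC-/-ApoE-/- and 1316 to 1763 FPKM in the ApoE-/- libraries (exact permutation p = 0.071). All 8 macrophage markers had lower values (median -0.97), and 2 of them met the unadjusted threshold (Mrc1 and Csf1r, adjusted p 0.20 and 0.28 by edgeR). Their sums were 270 to 911 FPKM and 552 to 1704 FPKM, respectively (exact permutation p = 0.11). None of the markers of either list was at 0 in a library. Lyz2 alone held 1544 of the 1704 FPKM of the macrophage list in ApoE-/- 4. Acta2 alone held 1982 of the 2919 FPKM of the smooth muscle list in NPRC-/-ApoE-/- 3. These sums thus rest largely on those genes. The 8 endothelial markers summed to 88.7 to 96.5 FPKM and 95.9 to 109 FPKM (exact permutation p = 0.071). The 5 hepatocyte markers summed to 0.10 to 0.57 FPKM in 7 libraries and to 58.5 FPKM in ApoE-/- 5, and 3 of them were at 0 in at least 1 library. By genotype entry 0 markers of the smooth muscle, macrophage and endothelium lists had an unadjusted p under 0.05 by edgeR, the medians were 0.24, -0.17 and -0.05, and the exact permutation p of the sums were 0.46, 0.82 and 0.82. After adjustment over the 6 lists a single list that separated the groups fully would have an exact permutation p of 0.21, so the sums could hardly pass in this design. The part of these cell types in the values of the 10 genes was not tested.

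The 5 tested loci outside all lists whose log2 CPM was most like the mean pattern of the 10 genes (each scaled to its own mean and SD) were Net1 (Pearson r = 0.96 over 8 libraries), Gm5182 (0.96), Pcyt2 (0.96), Pdhb (0.96) and Mpzl2 (0.95). Pdhb encodes a subunit of pyruvate dehydrogenase, which makes acetyl-CoA, and Pcyt2 an enzyme of phosphatidylethanolamine synthesis. Pdhb was lowest in ApoE-/- 3 (9.0 FPKM) and highest in ApoE-/- 2 (25.4 FPKM), as were Pcyt2 (2.70 and 4.12 FPKM) and Net1 (9.86 and 18.8 FPKM). The 5 loci were picked for this likeness out of all those eligible, so the high r and the shared extremes follow from the choice. They are a description only, and a link of these loci to the 10 genes was not tested.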

How the data were processed

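RNA-seq of whole aortas was analysed from 1 table of 8 libraries. The authors trimmed the reads with cutadapt 1.9 (submitters' processing notes, which also name FastQC and GRCm38), aligned these by HISAT2 and built transcripts by StringTie. They deposited raw whole-number counts and, beside them, FPKM values normalized by the authors to exon length and mapped fragments. How counts were derived and whether strand was used are not stated. The table had 0 columns of values without a sample, and 1710 loci carry more than 1 gene name.

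A locus was tested if 3 or more libraries reached 1 FPKM, in R 4.3.3 with edgeR 4.0.16 (TMM, quasi-likelihood test, Benjamini-Hochberg adjustment). Log2 CPM used a prior count of 2. Levels per kilobase used the library sizes that the FPKM values imply. Lists were compared by summed FPKM with exact permutation tests (scipy 1.17.1). Their p-values set the difference between the groups against that under every assignment of these libraries to groups. Replicates all differed beyond sampling noise (smallest mean chi-square 93.6). In data simulated for the comparison by title, with 200 of 20506 loci changed, 56.5% were called. The changes put in were 2-fold or larger, and the spread was set by expression level and not gene by gene. This share does not apply to smaller changes, such as those of the members. Precision is limited by the number of libraries (biological coefficient of variation 0.327).

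The members and all lists were chosen with earlier results of these data known. Named genes were all members, pathway genes with an unadjusted p under 0.05 by title, a few defining markers, Npr3 and the 5 loci of the most similar pattern. Alternatives covered the grouping, scaling, filter, pseudocount (1 or 0.1), limma 3.58.1, DESeq2 1.42.0, array quality weights, the replicate block and each library left out. The 4 libraries whose labels agree were also compared, by values only.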

Additional observations from a re-analysis of the deposited data

Results flagged for a closer look

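In groups of 5 libraries, the library farthest from the others was compared with its group's range for the 10 genes and 6 marker lists. Of 32 groups checked, 2 held a library apart, while chance alone gives about 1.6. No member was among them. The summed brown adipocyte markers of ApoE-/- 3 were 7.06 on the log2 scale of summed FPKM, and the gap to the nearest of the 5 libraries entered as Apoe-/- was 0.783 of the range, against a limit of 0.71. The summed hepatocyte markers of ApoE-/- 5 were 5.87 on the same scale, with a gap of 0.727 of the range of the 5 libraries titled ApoE-/-.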

How the results depend on the processing

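The number of members with an unadjusted p under 0.05 by title was 0 in edgeR, and became 1 (Agpat2) with the replicate block, with the same 6 libraries and no block, and without ApoE-/- 3 and ApoE-/- 5, the last chosen after seeing the data. It ranged from 0 to 1 as each library was left out, by title and by genotype entry. The fold and p criterion was passed by 0 members, and by 1 with the replicate block (Agpat2, log2 fold change 1.03). No member had an adjusted p under 0.05 in any setting. The number of pathway genes with an unadjusted p under 0.05 was 3 in edgeR, 6 with DESeq2 and 9 with array quality weights. Of all 20506 loci, 2797, 3423 and 5419 met that threshold in these settings, respectively. The number was 0 at a mean of at least 5 FPKM (a filter that removes all 3), and 0 by genotype entry. It was 1 to 5 with a library left out (5 without NPRC-/-ApoE-/- 1 and 1 without NPRC-/-ApoE-/- 3). There 4431 and 1373 of all loci met the threshold, respectively. The median of Pearson's r with the white adipocyte level fell from 0.73 to 0.21 without the 2 farthest libraries. The median log2 fold change of the members was 0.22 to 0.59 over the alternatives by title, and 0.07 by genotype entry, where its alternatives ran from -0.08 to 0.26. The 0.59 came from the 4 libraries whose labels agree, as a plain difference of mean log2 CPM. There NPRC-/-ApoE-/- 3 alone stood against ApoE-/- 1, 2 and 3, so this value rests on 1 library. Against the values by title, and counting genotype entry as an alternative, Dgat1 changed sign in 6 of 21 alternatives, Me1 in 4 of 22, Scd1 and Dgat2 in 2, and Acly, Thrsp and Elovl6 in 1. Same-numbered libraries did not deviate together (correlations -0.27, -0.13 and -0.01), and 0 of 3 matched best with their own number. So few values, centred on the titled groups whose labels conflict, cannot exclude a pairing by litter or processing. The titles themselves give only a number. With the block, 1813 loci had an unadjusted p under 0.05, against 2651 in the same libraries without it and 2797 in all 8. Dgat1 was not tested at a mean of at least 5 FPKM. By title the 95% interval reached past a 2-fold difference for 8 of the 10 members, and by genotype entry for 4.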

Other observations

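A locus named Scd1 on the opposite strand, noticed after its values were seen, measured 9.33 FPKM in NPRC-/-ApoE-/- 1, 7.20 in ApoE-/- 5 and 1.38 in NPRC-/-ApoE-/- 2, and 0.09 to 0.28 in the other 5 libraries. The 3 libraries had 4510, 3082 and 495 counts there, against 42 to 127 in the others. It spans chr19:44377392-44407525 on the plus strand and overlaps the Scd1 gene, which lies on the minus strand from 44394455 to 44407879. All 3 libraries are among the 4 whose genotype entry goes against the title, the fourth being ApoE-/- 4 at 0.19 FPKM. The locus held 0.152% of the counts of loci named Scd1.

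Loci of other strands or places also carried the names of 6 further members. That of Elovl6 on the opposite strand held 10.7% of the counts under this name, while for the others the additional loci held at most 2.61%.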
